A study of Mus musculus with 24 samples.

Results

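The common form of human TREM2 was compared with mouse Trem2 in the hippocampus of female PS19 mice, which develop tau pathology from a transgene for P301S human tau. Of the 24 bulk RNA-seq libraries of the study, 9 entered the comparison. They were the 6 female libraries with the genotype P301S+;hTREM2-WT/+ and the 3 female libraries with the genotype P301S+;msTrem2+/+ whose titles start with LG73. The first group is called WT-TREM2 here and carried 1 human TREM2 allele of the common form. The second is called Trem2+/+ and kept the mouse gene alone. All 9 carried the tau transgene, so no library shows a brain without tauopathy. The sources used here do not give the age of the mice, the meaning of the LG73 prefix or the number of animals behind a library, and the spread behind each p-value is that of libraries, which may be partly technical.

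TREM2 is a receptor on the surface of microglia, the resident immune cells of the brain. It binds lipids and lipoproteins and signals through the adaptor TYROBP and the kinase SYK. In mouse models with amyloid or tau, microglia need it for the shift from a resting state to one with high Apoe and lysosomal genes. A rare human variant, R47H, is linked to Alzheimer's disease, and the common allele served as its counterpart in the study, which also held R47H-TREM2 and Trem2+/+ mice of both sexes under the prefix LG72.

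No gene was called in this comparison. Of 16118 genes tested with edgeR's quasi-likelihood test, 0 passed an adjusted p under 0.05 (0%), and the smallest adjusted p was 0.860. At an unadjusted p under 0.05 there were 630 genes (3.91%), of which 368 were higher in WT-TREM2 libraries (2.28%) and 262 were lower (1.63%). In 221 genes all 6 WT-TREM2 libraries lay above all 3 controls (1.37%), and in 234 all 6 lay below (1.45%). The median log2 fold change over all genes was 0.04, and 54.6% of genes were higher in WT-TREM2 libraries. The list counts for this comparison are to be read beside this share and the 3.91% at an unadjusted p under 0.05. A count near them shows no direction of the list. In each list, 2 of the genes named were those with the smallest p in these same libraries. Groups without overlap are no further support for such genes. The middle of the distribution ran from −0.60 at the 5th percentile to 0.77 at the 95th. The median standard error was 0.27, and 0.22 for genes at or above 10 CPM (counts scaled to library size).

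Mouse Trem2 lies on chromosome 17 at 48346401 to 48354147 (GRCm38, + strand). Its promoter is shown because the human allele compared here is of this gene. The 250 bases before the start, chr17:48346151-48346400 on the + strand of GRCm38.p6, come from RefSeq and read 5′ to 3′:

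Trem2 promoter: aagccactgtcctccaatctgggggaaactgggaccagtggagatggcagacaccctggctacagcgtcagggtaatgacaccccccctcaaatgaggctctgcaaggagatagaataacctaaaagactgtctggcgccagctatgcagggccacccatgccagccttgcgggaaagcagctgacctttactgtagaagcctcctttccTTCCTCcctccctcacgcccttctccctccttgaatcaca

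The capitals mark the single match, on either strand, to GAGGAA, letters found in many binding sites of the myeloid transcription factor PU.1. It begins at base 211, 40 bases before the start of the gene. Of 32851 RefSeq mouse promoters, 23.3% hold these letters in the same 250 bases. The match is a description of the letters and not a measured binding site.

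The libraries held 15578442 to 22991489 counts each. Replicate libraries were not copies of each other: over 18 pairs, the smallest chi-square per degree of freedom was 24.2. The albumin gene Alb, expressed in liver, was above 30 CPM in WT-TREM2 females 2, 4, 5 and 6 and in Trem2+/+ female 1, and at 15.0 CPM or less in the other 4. The adenosine receptor gene Adora2a, high in striatum, stood at 57.8 CPM in WT-TREM2 female 2 and 33.5 in WT-TREM2 female 5, against 1.48 to 3.97 in the other 7. Prl, a pituitary hormone, reached 58.7 CPM in Trem2+/+ female 3 and at most 9.57 elsewhere. These 3 of the 9 are called doubted libraries, and the main list medians and the fold changes most moved by them are also given without them. That leaves 4 WT-TREM2 and 2 Trem2+/+ libraries. Over all 24 libraries 6 were doubted. The others were R47H-TREM2 female 5 of LG72 (Prl 979 CPM) and Trem2+/+ females 1 and 3 of LG72. Those 2 controls held 420 CPM of the olfactory gene Omp and 53.6 CPM of Adora2a, respectively.

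**Figure D1:**
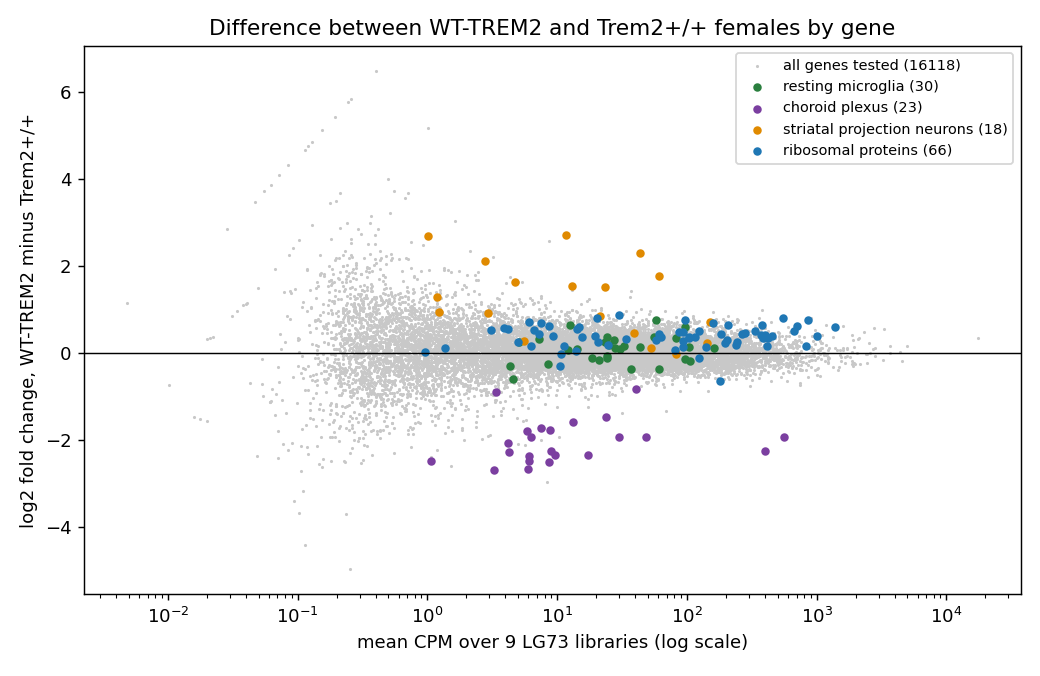
Each point is a gene, with its mean CPM over the 9 libraries on a log axis and its log2 fold change (WT-TREM2 minus Trem2+/+) on the vertical axis. Colours mark 4 gene lists: the 23 choroid plexus genes all lie below 0 (median −2.05), 17 of 18 striatal genes lie above it, and the 30 genes of resting microglia lie around it (median 0.12).

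Trem2 itself overlapped between the groups. Its level was 2.78 CPM in the lowest WT-TREM2 library, 8.49 in the median and 33.1 in the highest, against 8.94, 8.998 and 17.6 in the 3 controls. WT-TREM2 female 2 was the highest of all 9 and WT-TREM2 female 4 the lowest, so the controls lay inside the range of the other group. The means were 12.4 ± 11.1 and 11.8 ± 4.99 CPM (SD, n = 6 and 3). On the log2 scale the difference was −0.30 (two-sided exact permutation p = 0.738; the smallest p that 84 groupings allow is 0.0238), while edgeR gave a log2 fold change of 0.07 (SE 0.55, adjusted p = 0.979). The direction therefore depended on the measure, and leaving out WT-TREM2 female 2 moved the log2 difference to −0.68. It is not known here whether human TREM2 reads were assigned to Trem2, so these values do not check the genotype. Nor is it known whether reads of the human tau transgene were assigned to Mapt. Mapt, the gene of tau, had a log2 fold change of 0.25 (SE 0.18, edgeR adjusted p = 0.860), which was 0.1 without WT-TREM2 female 4, the library highest in Mapt. The value for Prnp, the prion protein gene, was −0.00 (SE 0.22, adjusted p = 0.997).

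Microglial genes overlapped in the same way. In bulk tissue, fewer cells of a type and less RNA per cell cannot be told apart. Of 30 genes of resting microglia 19 were higher and 11 lower (median log2 fold change 0.12), and 0 reached an unadjusted p under 0.05. Cx3cr1, the receptor for a neuronal chemokine, ran from 72.9 over 97.1 to 163 CPM against 63.7, 98.2 and 129. WT-TREM2 female 2 was the highest of all 9 libraries, and each control lay within or just under the range of the other group. C1qb, a complement subunit made by microglia, stood at 22.8, 41.7 and 177 CPM as lowest, median and highest WT-TREM2 library, against 28.7, 28.2 and 60.3. Its log2 fold change of 0.77 (SE 0.50, edgeR adjusted p = 0.860) was 0.19 without WT-TREM2 female 2 and 1.22 without Trem2+/+ female 3.

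Of 34 genes raised in microglia around plaques and in tauopathy, 22 were higher (median 0.14), and 1 stood at an unadjusted p under 0.05. That gene was Cybb, the membrane subunit of the phagocyte NADPH oxidase. It had 0 to 3.003 CPM in WT-TREM2 libraries, with a median of 0.573, and 0.278, 2.48 and 6.20 in the controls (a log2 fold change of −1.79, SE 0.85, edgeR adjusted p = 0.860), and the groups overlapped. Its fold change was −0.67 without Trem2+/+ female 3, −2.82 without WT-TREM2 female 6 and −0.36 without the doubted libraries. Apoe, the lipid carrier that defines this state together with Trem2, ran from 1524 over 2790 to 6324 CPM against 2162, 1884 and 2178. WT-TREM2 females 1 and 4 lay under all controls and WT-TREM2 females 2, 3, 5 and 6 above them. The log2 fold change of 0.58 (SE 0.34, edgeR adjusted p = 0.860) was 0.24 without WT-TREM2 female 2 and 0.14 without the doubted libraries. Igf1, a growth factor of this state, was 0.38 higher on the log2 scale (SE 0.22, adjusted p = 0.860 in edgeR).

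A list score averages the centred log2 CPM over the genes of a list. For resting microglia they ran from −0.76 in WT-TREM2 female 4 to 0.67 in WT-TREM2 female 2, and the controls stood at −0.53, −0.05 and 0.50. For the pathology-associated list they ran from −1.35 to 0.93 in the same pair of libraries, with controls at −0.62, 0.01 and 0.61. The medians of both lists turned with single controls: without Trem2+/+ female 1 they were −0.09 and −0.11, and without Trem2+/+ female 3 they were 0.37 and 0.43. Without WT-TREM2 female 2 the pathology-associated median was −0.0024. Without the doubted libraries the medians were 0.16 and 0.24.

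**Figure D2:**
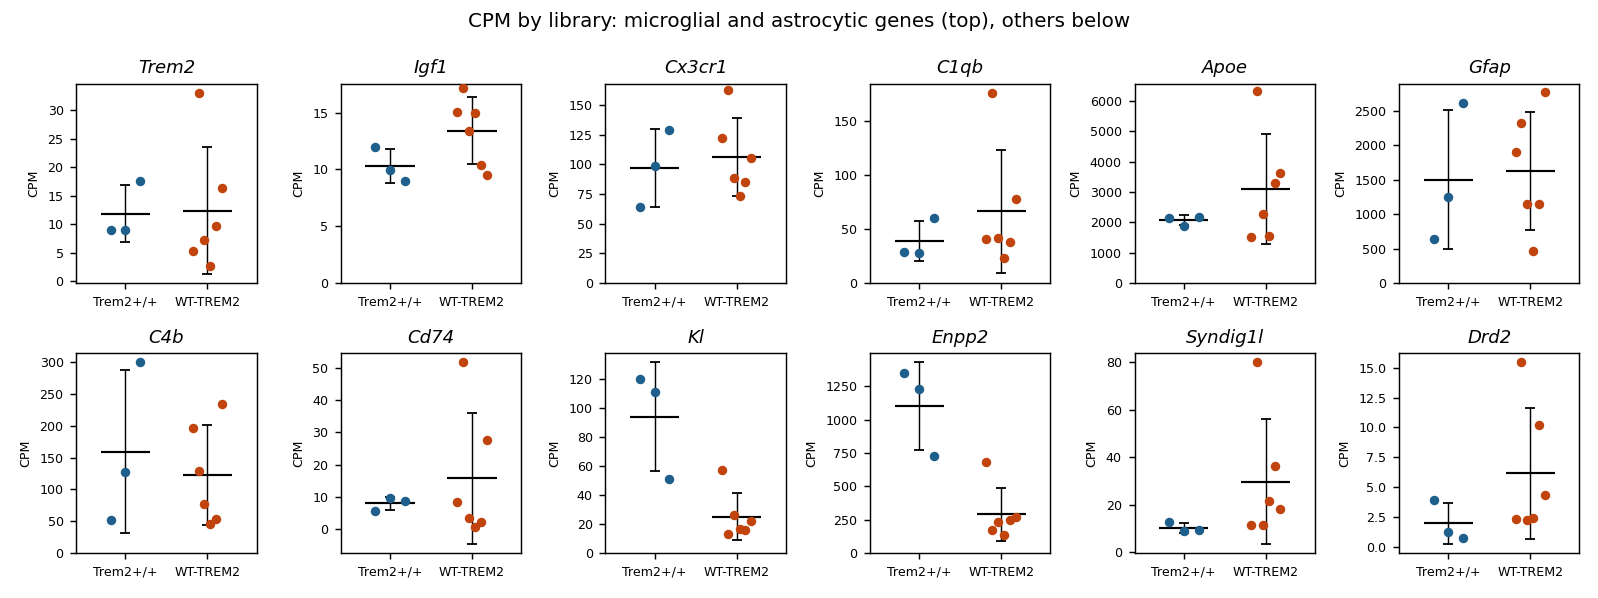
CPM in each library (points), with the group mean (bar) and SD (whisker), for 12 genes in Trem2+/+ (n = 3) and WT-TREM2 (n = 6) females. The microglial genes and Gfap overlap between the groups, Kl and Enpp2 are lower in most WT-TREM2 libraries, and Syndig1l and Drd2 are highest in WT-TREM2 females 2 and 5.

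Signalling below TREM2 showed no common direction. Of its 22 genes 10 were higher and 12 lower (median −0.03), and 0 reached an unadjusted p under 0.05. The median was 0.16 without the doubted libraries. Ptk2b, a calcium-activated tyrosine kinase that is also abundant in neurons, ran from 463 over 771 to 972 CPM against 950, 1304 and 976 (a log2 fold change of −0.54, SE 0.30, edgeR adjusted p = 0.860). Pik3cd, a catalytic subunit of PI3K in leukocytes, ran from 19.0 over 22.5 to 24.9 CPM against 21.0, 17.6 and 16.2, and overlapped as well.

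The PI3K, AKT and mTOR genes were higher in 15 of 39 cases (median −0.05). At an unadjusted p under 0.05, 2 were higher and 0 lower. Mlst8, a subunit of both mTOR complexes, ran from 27.0 over 30.5 to 35.7 CPM in WT-TREM2 libraries and stood at 23.5, 23.2 and 22.2 in the controls. All 6 lay above all 3 (a log2 fold change of 0.42, SE 0.15, edgeR adjusted p = 0.860). Mlst8 was named for its p in these same libraries, so this separation is no further support. Akt1s1, an inhibitory partner of mTOR complex 1, ran from 41.7 over 68.0 to 91.3 CPM against 58.2, 40.0 and 41.6, with overlap through Trem2+/+ female 1.

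Interferon, complement and reactive astrocyte genes had medians below 0, without a gene called. Interferon-stimulated genes were lower in 27 of 34 cases (median −0.29). Oasl2, an antiviral protein of this response, ran from 1.39 over 4.29 to 14.6 CPM against 2.32, 11.9 and 24.6. Trem2+/+ female 1 stood low among the controls, and the groups overlapped. Complement genes were lower in 15 of 22 cases (median −0.19) and reactive astrocyte genes in 24 of 33 (median −0.27). Gfap, the intermediate filament of astrocytes, ran from 460 over 1530 to 2777 CPM against 640, 1250 and 2609, and C4b, a complement component of reactive astrocytes and oligodendrocytes, from 46.0 over 104 to 234 against 51.0, 126.96 and 301. Both genes overlapped over nearly the whole range.

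These 3 medians rested on Trem2+/+ female 3, the control with high Prl. Without it the interferon, complement and reactive astrocyte medians were 0.12, 0.23 and 0.29, and without the doubted libraries 0.04, 0.14 and 0.21. Without Trem2+/+ female 1 the interferon median was −0.60 and the reactive astrocyte median −0.55. Within the libraries above 30 CPM of Alb (4 against 1) the interferon score difference was 0.60, and within those below (2 against 2) it was −1.18. Antigen presentation genes were higher in 13 of 20 cases (median 0.06). Cd74, the invariant chain of MHC class II, ran from 0.500 over 5.97 to 51.8 CPM against 5.56, 9.49 and 8.65, with WT-TREM2 females 2 and 6 far above the rest.

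Among inflammatory mediators, 3 of 25 genes reached an unadjusted p under 0.05. Ptgs2, the inducible cyclooxygenase, ran from 12.7 over 21.0 to 26.1 CPM against 25.9, 31.6 and 36.5 (a log2 fold change of −0.60, SE 0.22, edgeR adjusted p = 0.860), and in hippocampus it is also a neuronal activity gene. A single pair of libraries, WT-TREM2 female 2 and Trem2+/+ female 1, kept the groups from separating. Il18, a cytokine processed by the inflammasome, was 0.80 higher on the log2 scale (SE 0.34, adjusted p = 0.860 in edgeR) and 0.51 higher without the doubted libraries. Of 19 astrocyte markers 12 were higher (median 0.09). Among them Fgfr3, a growth factor receptor, stood at 95.8 to 145.5 CPM in all 6 WT-TREM2 libraries and at 89.3, 67.2 and 77.3 in the controls, so the groups did not overlap (a log2 fold change of 0.55, SE 0.22, edgeR adjusted p = 0.860).

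The genes with the smallest p were of mixed function. They were picked by p in these same libraries, so groups without overlap are no further support for them. Over all genes the groups lay apart in 1.37% upward and 1.45% downward. Higher in all 6 WT-TREM2 libraries than in all 3 controls was Adck4, a kinase-like protein of coenzyme Q synthesis. It ran from 17.5 over 19.2 to 32.8 CPM against 14.7, 10.3 and 9.59 (a log2 fold change of 0.88, SE 0.20, edgeR unadjusted p = 0.000153). Rexo4, a nucleolar exonuclease-like protein, ran from 34.0 over 41.2 to 46.2 CPM against 28.5, 24.3 and 27.3, again without overlap (a log2 fold change of 0.62, SE 0.16). Hbegf, a ligand of the epidermal growth factor receptor, ran from 12.1 over 16.7 to 40.3 CPM against 8.98, 9.43 and 8.96 (1.24, SE 0.32). The SD of the Hbegf controls was 0.265 CPM, while WT-TREM2 females 1 and 2 stood far above the other 4. Ldhd, a mitochondrial lactate dehydrogenase of the D form, was likewise higher without overlap (5.73 to 10.9 CPM against 2.85 to 5.14), as was Ttc4, a co-chaperone (27.6 to 45.8 against 19.7 to 21.7).

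Below all controls in all 6 WT-TREM2 libraries were Srl and Rbm15. Srl, sarcalumenin, a calcium-binding protein, ran from 7.03 over 10.95 to 12.4 CPM against 15.1, 16.4 and 22.4 (a log2 fold change of −0.80, SE 0.21, edgeR adjusted p = 0.860). Rbm15, an RNA-binding protein of the RNA methylation machinery, ran from 6.66 over 10.7 to 12.3 CPM against 16.5, 17.4 and 16.5 (−0.72, SE 0.19, same adjusted p). Srl stood at −0.46 without the doubted libraries. Tob2, an antiproliferative protein, stood at 16.5 to 35.3 CPM against 41.0 to 49.6, and Senp1, a SUMO protease, at 6.95 to 9.82 against 10.4 to 12.7. Slc12a1, a kidney-type cotransporter, had 0 CPM in 5 WT-TREM2 libraries and 0.0515 in the other, against 0.0463, 0.372 and 0.564, too few reads for a fold. Htr1d, a serotonin receptor, stood at 0.304 to 2.43 CPM against 0.0463, 0 and 0.188.

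**Figure D3:**
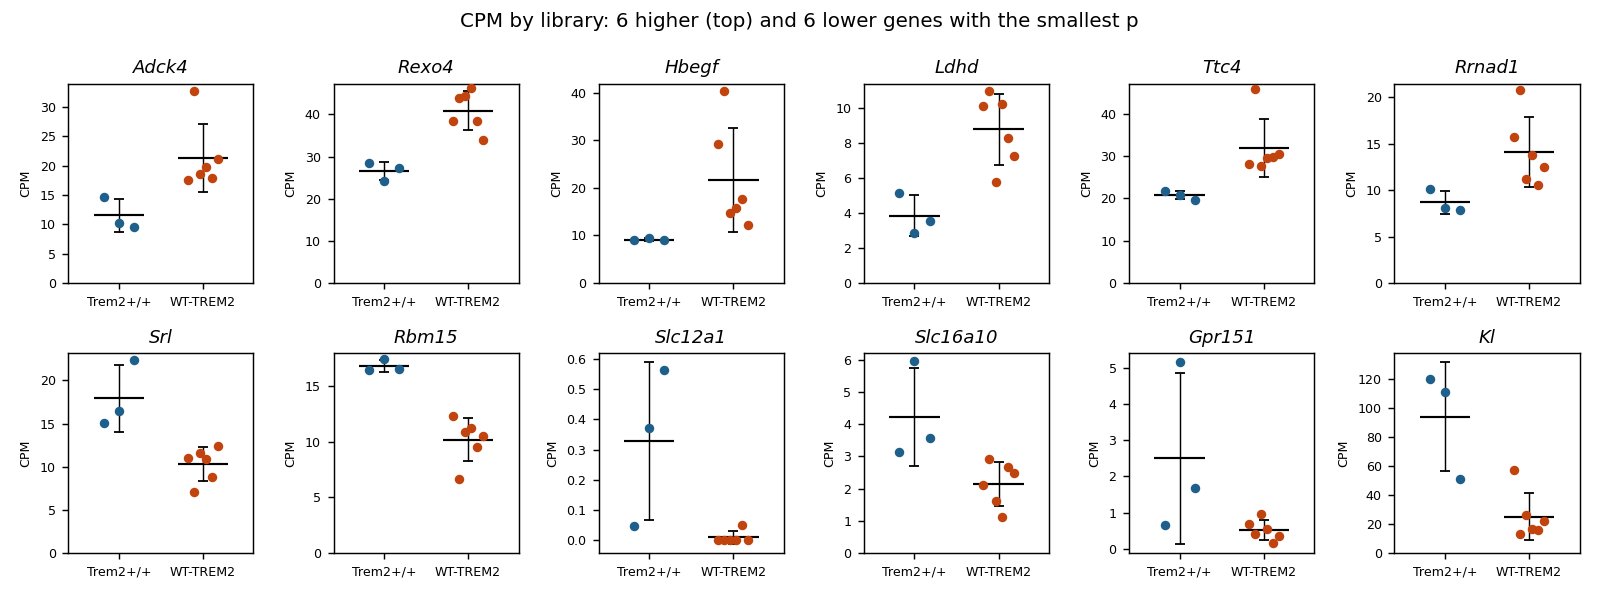
CPM in each library (points), with the group mean (bar) and SD (whisker), in Trem2+/+ (n = 3) and WT-TREM2 (n = 6) females for the 6 higher and the 6 lower genes with the smallest edgeR p. The 6 upper genes separate the groups, and of the lower ones Srl, Rbm15 and Slc16a10 do. None passed the adjusted test.

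Choroid plexus genes had the lowest median of the 46 lists. The choroid plexus secretes cerebrospinal fluid and borders the hippocampus along its fissure. All 23 tested genes were lower in WT-TREM2 libraries (median log2 fold change −2.05), 20 of them at an unadjusted p under 0.05 and 0 past the adjusted test. Enpp2, autotaxin, which makes lysophosphatidic acid, ran from 131.7 over 242 to 680.4 CPM against 1348, 1227 and 729, without overlap (a log2 fold change of −1.93, SE 0.62, edgeR adjusted p = 0.860). Kl, klotho, a receptor partner of fibroblast growth factors, ran from 13.2 over 19.0 to 57.1 CPM against 120, 111 and 51.2 (−1.92, SE 0.60). Ttr, the thyroxine carrier of cerebrospinal fluid, ran from 21.5 over 142 to 495 CPM against 1376, 843 and 296 (−2.25, SE 0.90). In Kl and Ttr the overlap came from WT-TREM2 female 1, the highest of its group, and Trem2+/+ female 3, the lowest control.

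The choroid plexus scores showed the same pair. They were 1.02, −1.29, −0.59, −2.02, −1.19 and −0.40 in WT-TREM2 females 1 to 6 and 2.12, 1.83 and 0.51 in the controls. Without the doubted libraries all 23 genes were still lower (median −2.15, 14 at an unadjusted p under 0.05). Without Trem2+/+ female 1 the median was −1.69 and 7 genes reached that p, and with the Trem2+/+ females of both prefixes pooled the median was −1.58 with 9. Without WT-TREM2 female 1 the median was −2.68 with 22. The score difference was −3.35 within the libraries above 30 CPM of Alb (4 against 1) and −0.96 within those below (2 against 2). How much choroid plexus each dissected hippocampus held was not tested.

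Cilium genes of ependyma, the lining of the ventricles, were lower in 17 of 17 cases (median −0.72), with 3 at an unadjusted p under 0.05. Without the doubted libraries 0 reached that p, while the median was −0.65 and 0 of 17 genes were higher. Spag16, a protein of the ciliary axoneme, ran from 0.782 over 0.976 to 1.80 CPM against 3.66, 2.79 and 3.26, without overlap (a log2 fold change of −1.50, SE 0.62, edgeR adjusted p = 0.860). Fam183b, a cilium gene of the ependyma, stood at 1.04 to 4.30 CPM against 4.49, 5.03 and 5.83, also without overlap. Foxj1, the master transcription factor of motile cilia, overlapped at 7.999 to 22.5 CPM against 23.1, 12.1 and 16.2. The ependymal scores ran from −0.85 to 0.38 in WT-TREM2 libraries and from 0.57 to 0.61 in controls. With the Trem2+/+ females of both prefixes pooled as controls the median was −0.24, and 14 of 17 genes were lower. Igf2, a growth factor of choroid plexus and meninges, ran from 15.3 over 48.1 to 85.6 CPM against 163, 117 and 67.9 (a log2 fold change of −1.32, SE 0.60, adjusted p = 0.860 in edgeR).

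**Figure D4:**
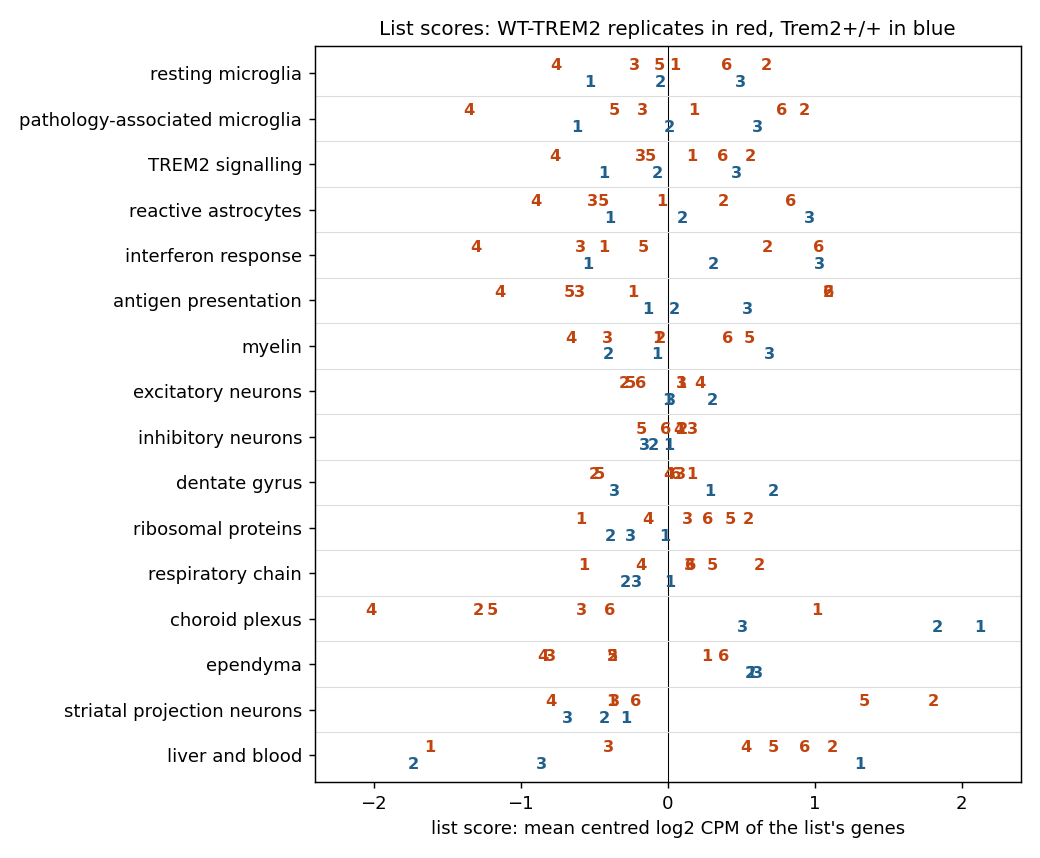
Scores of 16 gene lists (horizontal axis, mean centred log2 CPM) in each library, with the replicate number of the 6 WT-TREM2 females in red and of the 3 Trem2+/+ females in blue. Numbers of both colours are interleaved in the glial and neuronal lists. Choroid plexus is lower in most WT-TREM2 libraries, and ependyma is lower in all 6 than in all 3 controls. Striatal genes stand high in WT-TREM2 females 2 and 5.

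Genes of striatal projection neurons were higher in 17 of 18 cases (median 1.11), with 7 at an unadjusted p under 0.05. Syndig1l, a transmembrane protein gene of this list, ran from 11.4 over 19.9 to 79.9 CPM against 12.8, 8.81 and 9.34 (a log2 fold change of 1.53, SE 0.52, edgeR adjusted p = 0.860). Drd2, the D2 dopamine receptor, ran from 2.21 over 3.37 to 15.4 CPM against 3.89, 1.24 and 0.689. In both genes WT-TREM2 females 2 and 5 were the highest. The scores were 1.81 and 1.34 in these 2 libraries, −0.80 to −0.22 in the other 4 and −0.68 to −0.29 in the controls. Without the doubted libraries the median was −0.01 with 7 of 17 genes higher and 0 at an unadjusted p under 0.05, and without WT-TREM2 female 2 alone it was 0.68 with 2. Drd2 had a log2 fold change of 1.64 with all libraries and 0.12 without the doubted ones, and Syndig1l stood at 0.53 without them. WT-TREM2 females 2 and 5 were doubted for high Adora2a, itself a striatal gene. A fall of striatal values without them therefore follows from how they were chosen and tests nothing.

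Dentate gyrus genes were lower in 20 of 22 cases (median −0.32), with 0 at an unadjusted p under 0.05. Prox1, the transcription factor of granule cells, ran from 7.35 over 34.8 to 49.6 CPM against 31.4, 72.6 and 31.3, and Dsp, desmoplakin, which marks granule cells in mouse brain, from 7.93 over 24.4 to 28.3 against 40.2, 97.0 and 24.6. Trem2+/+ female 2 was the highest in both, and without it the list's median was −0.02. WT-TREM2 females 2 and 5, with high striatal genes, had the lowest Prox1 of all 9 libraries. Genes of CA1 pyramidal cells were higher in 9 of 14 cases (median 0.04), with Wfs1, an endoplasmic reticulum protein of these cells, at 53.5 to 175 CPM against 148, 114 and 131.

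Excitatory neuron markers were lower in 12 of 19 cases (median −0.10) and inhibitory ones higher in 16 of 21 (median 0.13). Camk2b, a subunit of the synaptic kinase CaMKII, stood at 986 to 1450 CPM in WT-TREM2 libraries and at 1570, 2089 and 1520 in controls, without overlap (a log2 fold change of −0.39, SE 0.23, edgeR adjusted p = 0.860), and the fold change was −0.23 without Trem2+/+ female 2. Sst, the neuropeptide somatostatin, ran from 46.4 over 93.0 to 251 CPM against 86.8, 38.2 and 48.0, the highest value again in WT-TREM2 female 2. Immediate early genes were lower in 14 of 24 cases (median −0.08). Bdnf, a neurotrophin induced by activity, ran from 34.3 over 44.6 to 48.8 CPM against 54.5, 68.3 and 58.2, so all 6 lay below all 3 (a log2 fold change of −0.45, SE 0.24, edgeR adjusted p = 0.860). Arc, a synaptic immediate early gene, overlapped at 72.9 to 354 CPM against 247, 268 and 248.9. Synaptic genes had a median of −0.04 (14 of 34 higher), and tau-related genes, which hold its kinases and phosphatases, 0.00 (13 of 26 higher).

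Of 24 myelin genes 9 were higher (median −0.05), and of 18 genes of oligodendrocyte precursors 14 (median 0.16). Mbp, myelin basic protein, ran from 1827 over 2850 to 6909 CPM against 2638, 1221 and 3643, with WT-TREM2 females 5 and 6 the highest. Among endothelial genes, 15 of 22 were higher (median 0.10). Cldn5, the claudin of the blood-brain barrier, ran from 22.8 over 47.8 to 93.9 CPM against 27.9, 23.9 and 27.3 (a log2 fold change of 1.01, SE 0.33, edgeR adjusted p = 0.860), and only WT-TREM2 female 1 lay under the controls. The fold change of Cldn5 was 0.61 without the doubted libraries. Cholesterol synthesis genes were lower in 16 of 25 cases (median −0.11).

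For ribosomal proteins 62 of 66 genes were higher (median 0.40), with 0 at an unadjusted p under 0.05. For the respiratory chain it was 39 of 44 (median 0.28), with 1. Rplp1, an acidic protein of the ribosomal stalk, ran from 301 over 639 to 953 CPM against 454, 326 and 325, and Cox8a, a subunit of cytochrome c oxidase, from 141 over 241 to 559 against 222, 135 and 153. WT-TREM2 female 1 was the lowest of all 9 in Rplp1 and WT-TREM2 female 2 the highest in both. Without the doubted libraries the medians were 0.12 and 0.04. Long nuclear RNAs were higher in 8 of 10 cases (median 0.72), with 2 at an unadjusted p under 0.05. Their median was 1.16 without Trem2+/+ female 3, 0.51 without Trem2+/+ female 1 and 0.97 without the doubted libraries. The score difference was 1.21 within the libraries above 30 CPM of Alb (4 against 1) and −0.02 within those below (2 against 2). Malat1, which stays in the nucleus, overlapped at 64.8 to 427 CPM against 67.8, 203 and 474. The part of RNA quality in these values was not tested.

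The sources used here do not say where the human allele lies, and the neighbours of mouse Trem2 were examined for that reason. Of 49 tested genes that start within 2 Mb of Trem2, 38 were higher and 11 lower (median log2 fold change 0.19, beside 0.04 over all genes), 4 had an unadjusted p under 0.05 and 0 were called. Med20, a subunit of the Mediator complex on the same chromosome (17, 47611582 to 47624418), ran from 9.38 over 14.8 to 18.03 CPM against 9.82, 9.18 and 9.34 (a log2 fold change of 0.59, SE 0.21, edgeR adjusted p = 0.860). Frs3, an adaptor of growth factor receptors (47689030 to 47704286), ran from 18.3 over 24.4 to 35.7 CPM against 22.1, 9.56 and 10.7. In each gene 1 library kept the groups from separating, WT-TREM2 female 5 in Med20 and Trem2+/+ female 1 in Frs3.

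**Figure D5:**
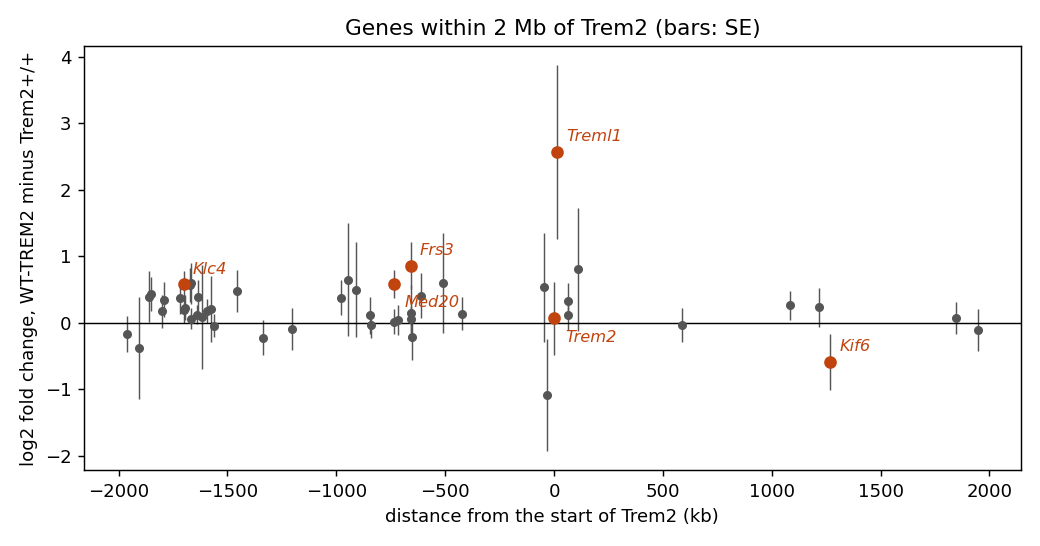
Log2 fold change (WT-TREM2 minus Trem2+/+, bars: SE) of the 49 tested genes that start within 2 Mb of Trem2, by distance from its start in kb. Most points lie above 0 (38 of 49), and Treml1 has the widest bar.

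The common allele was then set against the R47H allele. The test took the difference between the WT-TREM2 effect in LG73 and the R47H-TREM2 effect in LG72 females (5 R47H-TREM2 and 3 Trem2+/+ libraries), each against its own controls. In edgeR 0 of 16118 genes passed (0%, smallest adjusted p 0.244), and 1459 had an unadjusted p under 0.05 (9.05%). All 6 doubted libraries of the study were among the females of this test. Without them Trem2+/+ female 2 would be the only control of LG72, so no count is given for that fit. The gene with the smallest p was Hrh3, the presynaptic histamine receptor. It ran from 41.3 over 64.4 to 72.1 CPM in WT-TREM2 libraries and stood at 50.1, 22.5 and 24.8 in their controls, while R47H-TREM2 libraries held 24.2 to 41.5 CPM and theirs 50.1 to 90.8. The effects differed by 1.99 on the log2 scale (SE 0.37, edgeR adjusted p = 0.244). Hrh3 passed in DESeq2 (adjusted p = 0.00227, among 13 genes called) and in edgeR without Trem2+/+ female 1 (adjusted p = 0.0102). The DESeq2 calls also held Adora2a and Drd2, the striatal genes that stood high in doubted libraries. For Hrh3, the Trem2+/+ females held 32.5 ± 15.3 CPM under LG73 and 70.5 ± 20.3 under LG72 (SD, n = 3 and 3).

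Choroid plexus genes showed opposite medians, −2.05 in WT-TREM2 and 1.91 in R47H-TREM2 females, and 22 of 23 had an unadjusted p under 0.05 for the difference. Over all genes tested that share was 9.05%, and the list counts for the difference are to be read beside it. Kl was 94.2 ± 37.5 CPM in the LG73 controls and 26.4 ± 15.1 in those of LG72 (SD, n = 3 and 3). Resting microglial genes had medians of 0.12 and 0.95 (11 of 30 at an unadjusted p under 0.05 for the difference), interferon genes −0.29 and 1.13 (13 of 34), and reactive astrocyte genes −0.27 and 1.36 (17 of 33). Genotype and prefix cannot be told apart here, since WT-TREM2 and R47H-TREM2 never shared a prefix.

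The counts at an unadjusted p moved with single libraries. Without WT-TREM2 female 1 there were 1299 such genes for WT-TREM2 and without Trem2+/+ female 1 there were 1069. Without WT-TREM2 female 2 there were 395, without Trem2+/+ female 2 there were 195 and without Trem2+/+ female 3 there were 363. Without the doubted libraries there were 199. In each of these fits 0 genes were called, as in DESeq2 (733 at an unadjusted p under 0.05) and limma-voom with sample weights (2624).

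Pooling the Trem2+/+ females of both prefixes as controls brought many single-gene values closer to 0. It also added the doubted Trem2+/+ females 1 and 3 of LG72 to the controls. Their part in the shifts, such as those of the striatal genes Syndig1l and Drd2, was not tested. The log2 fold changes were then 0.51 for Adck4, 0.18 for Mlst8, 0.21 for Fgfr3, 0.083 for Igf1 and 0.50 for C1qb. Among lower genes they were −1.27 for Kl, −0.95 for Spag16, −0.87 for Igf2, −1.09 for Cybb, −0.36 for Ptgs2, −0.27 for Ptk2b, −0.28 for Bdnf and −0.16 for Camk2b. For Med20 the value was 0.39, for Syndig1l 0.77 and for Drd2 0.28. Hbegf stood at 0.81 in limma-voom.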

How the data were processed

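Hippocampal RNA enriched with oligo(dT) beads was sequenced as 24 bulk libraries, per the labels. The values are read counts per gene symbol, deposited as whole numbers and not normalized, on GRCm38 per the submitters' processing notes. Aligner and counter: not given in the sources used here. Besides these, the tables held 18 columns of per-sample values that matched no sample, and these were not used. Of 24058 symbols, 25 had become dates (0.353% of counts).

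Counts were filtered with filterByExpr (16118 genes) and scaled by TMM. All 24 libraries entered 1 fit with a mean for each of 6 groups (edgeR 4.0.16, R 4.3.3), called at a Benjamini-Hochberg adjusted p under 0.05 over all genes. The common biological coefficient of variation was 0.318. CPM use TMM factors, list scores a prior count of 2. Replicates were numbered in accession order. Positions came from GENCODE M21 and matched 95.1% of genes tested. Libraries were doubted where Prl or Omp passed 50 CPM, or Adora2a 30. Genes named, predicted genes and dates left out, were Trem2, Mapt and Prnp, the 12 higher and 12 lower with the smallest p, in each of 46 lists the 3 highest and the 2 with the smallest p, and up to 5 for the difference of effects; the text gives part of these. Adora2a, Prox1 and Wfs1 were chosen after their values were seen. The comparison, lists and members were chosen with earlier results of these data known. Alternatives were DESeq2 1.42.0 (test and size factors), limma 3.58.1 voom with sample weights, upper-quartile factors, a robust fit, no filter, LG73 alone, pooled controls, a term for Alb above 30 CPM, leaving out the doubted libraries, and leaving out each of the 9. Some genes are not reported here. The scripts were tested on simulated data.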

Additional observations from a re-analysis of the deposited data

Results flagged for a closer look

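Of 143 items examined in the 6 WT-TREM2 libraries (97 genes and 46 list scores), 19 had 1 library far from the other 5. For independent values with a normal distribution, chance alone flags about 1 group in 20. CPM need not be normal, and some genes were picked by p, so that rate need not hold here. WT-TREM2 female 2 was the highest in Adck4 (32.8 CPM), Ttc4 (45.8), Inha (11.4), Htr1d (2.43), C1qb (177), S100b (449.98), Syndig1l (79.9), Sst (251), Manf (93.2) and Prl (9.57), and the lowest in the PI3K, AKT and mTOR score (−0.38). WT-TREM2 female 1 was the highest in Kl (57.1 CPM), Senp1 (9.82), Ttr (495) and Enpp2 (680.4). Single values in other libraries were Slc12a1 at 0.0515 CPM and Bdnf at 34.3 CPM (the lowest) in WT-TREM2 female 5, Cybb at 3.003 CPM in WT-TREM2 female 6, and the long nuclear RNA score of −0.78 in WT-TREM2 female 3. The causes were not tested.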

How the results depend on the processing

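The count of 0 genes called held in every alternative run, and an adjusted p under 0.1 also gave 0. The difference of effects gave 13 calls in DESeq2 (8 higher, 5 lower) and 0 to 1 when 1 library was left out (Hrh3, adjusted p = 0.0102, without Trem2+/+ female 1). Of 69 genes, 64 kept their direction in all 19 alternatives, and Slc12a1 in the 18 that gave it a value. Many of these genes were named for a small p in libraries that the alternatives largely reuse. Their constant direction is therefore no further support. Trem2, Mapt and Prnp were named without regard to p, and of these only Mapt kept its direction. Of 46 lists, 38 moved by less than the spread between libraries, but 34 had a median of the other sign in at least 1 alternative. The log2 fold change of Trem2 was −0.19 with pooled controls, −0.15 with the Alb term, −0.18 without the doubted libraries, −0.26 in limma-voom and −0.51 to 0.47 when 1 library was left out, and its permutation difference ran from −0.68 to 0.037. Prnp stood at 0.10 with the Alb term, 0.00195 without the doubted libraries and −0.10 to 0.073 with 1 library left out, and with pooled controls Vip stood at −0.42 and Kcnt1 at −0.066. The pooled controls held the doubted Trem2+/+ females 1 (Omp at 420 CPM) and 3 (Adora2a at 53.6) of LG72. With these controls the medians were −0.031 (inhibitory neurons), −0.38 (glucocorticoid-induced), −0.24 (ependyma), −0.091 (cortex) and −1.10 (olfactory). Without the doubted libraries they were 0.065 (lipid efflux) and −0.014 (striatal), and the Alb term gave −0.26 (olfactory). With 1 library left out lipid efflux ran from −0.18 to 0.065, olfactory from −0.39 to 0.61 and liver and blood from 0.13 to 2.27. The causes were not tested. No paired analysis was possible because the replicate numbers were given in accession order and pair no libraries. With 6 and 3 libraries, a median standard error of 0.27 limits what could be called.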
